A study of Mus musculus with 24 samples.

Results

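Mouse hearts in which the activity of phosphoinositide 3-kinase (PI3K) was lowered by a transgene were compared with non-transgenic hearts, without infarction on either side. The comparison holds all arrays titled dnPI3K sham (4) and all arrays titled Ntg sham (4), which makes 8 of the 24 arrays of the series. The dnPI3K mice carry a dominant negative PI3K mutant expressed in the heart, and the Ntg mice carry no transgene. All were FVB/N mice given a sham operation, surgery without coronary ligation, when 4 months old, and their hearts were removed after 8 weeks. The labels describe the function and histology of dnPI3K sham and of Ntg sham hearts as normal. The sources used here do not give the promoter of the transgene, the number of transgenic lines or the sex of the mice. The other arrays are dnPI3K hearts after myocardial infarction (MI), hearts with a constitutively active PI3K transgene (caPI3K) after sham operation or MI, and Ntg hearts after MI, with 4 arrays in each group.

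In heart muscle, PI3K of the p110 alpha kind is switched on by the receptors for insulin and for insulin-like growth factor 1 (IGF1), which signal through insulin receptor substrates. Its lipid product recruits the kinase Akt, which phosphorylates FoxO transcription factors and so keeps them out of the nucleus. The pathway is best known in the heart for physiological growth, as after exercise, and for survival of the muscle cells.

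Each value is an Affymetrix signal, a brightness in arbitrary units, from total RNA of a homogenized heart. Differences are given on the scale log2(signal + 11.2), dnPI3K minus Ntg, so a positive value means higher in dnPI3K hearts and changes of dim genes are compressed. A gene was called at an adjusted p under 0.05 in limma, with Benjamini-Hochberg adjustment over 14763 genes, in a fit of all 24 arrays. Whether arrays stand for separate animals is not stated in the labels, and p-values therefore reflect array-to-array spread, which may be technical. In tissue of this kind, fewer cells of a type and less RNA per cell cannot be told apart. *Myh6*, the main myosin heavy chain of adult mouse ventricle, was among the brightest genes on all 8 arrays (60838 to 76813 in dnPI3K sham and 57671 to 77857 in Ntg sham hearts).

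One array stands apart from its label. Ntg sham replicate 4, titled Ntg sham 1185, correlated at 0.947 to 0.950 with Ntg sham replicates 1 to 3, which correlated at 0.953 to 0.956 with each other. Its highest correlations were with caPI3K MI replicate 3 (0.960) and caPI3K MI replicate 2 (0.959). *Postn*, a matrix protein of activated fibroblasts, had a signal of 11638 on this array and 2098 to 3318 on the other Ntg sham arrays, against 10135 to 16773 over the 12 MI arrays. *Mfap4*, a microfibril protein that was near background in most sham hearts, read 579 there and 11.5 to 19.6 on the other Ntg sham arrays. *Myl1* was at 35965, with 27825 to 34508 in caPI3K MI and 13142 to 16754 on Ntg sham replicates 1 to 3. *Bex1* was at 378, with 593 to 833 in caPI3K MI and 2011 to 2738 on Ntg sham replicates 1 to 3. Other genes lay elsewhere: on this array *Etv5* (380) and *Asb5* (2018) were off the range of Ntg sham replicates 1 to 3 on the side of the dnPI3K sham arrays, and *Dusp4* (143) and *Lgi1* (360) were within that range. It is kept under its label here, and results are given with all arrays and without it. Among dnPI3K sham arrays, replicate 3 had *Mfap4* at 365, against 12.5 to 48.1 on the others, and a summed signal of 11 lymphocyte markers of 7982, against 985 to 1141. The brightest of these markers on that array was *Ighm*, the immunoglobulin mu chain, at 5086, named after its values were seen.

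**Figure D1:**
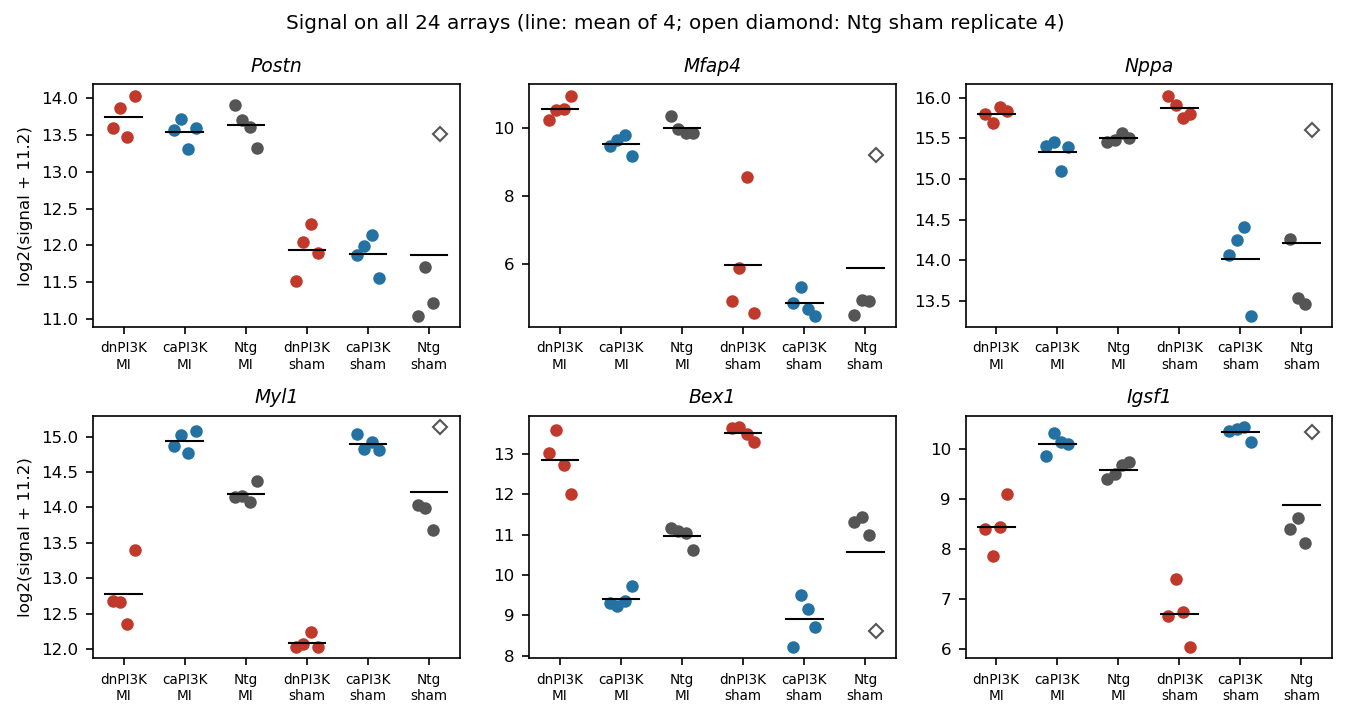
Signal of 6 genes on all 24 arrays, as log2(signal + 11.2), by group; each point is an array, each line the mean of 4 and the open diamond is Ntg sham replicate 4. The diamond sits among the MI arrays for *Postn* and *Nppa* and near the caPI3K arrays for *Myl1*, *Bex1* and *Igsf1*, apart from the other Ntg sham arrays.

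In the fit of all 24 arrays, with all 8 sham arrays of the comparison, 169 genes were called, 1.14% of those tested. A fit on the 8 arrays alone called 74. That fit with a term for array number (415 to 418 against 1181 to 1191) called 104. Array number here means the number in the title, and the titles do not say what it stands for. The median over the probe sets of a gene in place of the brightest one called 103. In dnPI3K sham hearts 62 genes were higher (0.420%) and 107 were lower (0.725%), and the median size of the called changes was 0.66. Changes of at least 1 log2 unit were few, 15 higher and 25 lower. Without Ntg sham replicate 4 the count was 167 (1.13%), with 70 higher (0.474%) and 97 lower (0.657%). The lists shared 114 genes, 38 higher and 76 lower. Of the 55 genes lost, 55 kept their direction. Leaving out dnPI3K sham replicate 2 instead lowered the count to 79, and to 70 when Ntg sham replicate 4 was also left out. Of the 169 called genes, 156 had all dnPI3K arrays on one side of all Ntg arrays. Over all genes tested, 2.63% lay wholly higher and 2.97% wholly lower. Since the genes were called on these same arrays, this excess is largely fixed by the choice.

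In the insulin and IGF1 pathway 5 of 49 measured genes were called. The docking protein *Irs1*, which links the insulin and IGF1 receptors to PI3K, was about double in dnPI3K hearts. Its signals were 4555, 4229, 4841 and 4432 in dnPI3K sham hearts, against 2420, 2292, 2240 and 1703 in Ntg sham hearts. No array of one group reached the range of the other, and the change was 1.07 (SE 0.12, adjusted p = 5.8e-06 by limma; 0.96 without Ntg sham replicate 4, adjusted p = 1.74e-05). *Igf1r*, the IGF1 receptor, read 1026, 1278, 975 and 1167 in dnPI3K sham hearts, against 958, 712, 569 and 640 in Ntg sham hearts. It rose by 0.64 (SE 0.15, adjusted p = 0.0257 by limma), with the highest Ntg array just under the lowest dnPI3K array, and lost the call without Ntg sham replicate 4 (0.59, adjusted p = 0.0711). Of its 4 dimmer probe sets, none called, 3 were positive and 1 was at -0.11. *Grb14*, an adaptor that inhibits the insulin receptor, read 4513, 4474, 5677 and 5054 in dnPI3K sham hearts, against 7255, 7110, 6854 and 8582 in Ntg sham hearts. It fell by 0.60 (SE 0.09, adjusted p = 0.000512 by limma; -0.53 without Ntg sham replicate 4), and the groups did not overlap.

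Of the 49 pathway genes, 2 rose (*Irs1* and *Igf1r*) and 3 fell, beside 0.420% higher and 0.725% lower over all genes tested, with a median of 0.02 against -0.0018 over all genes tested. The other genes that fell were *Inppl1*, the phosphatase SHIP2 that removes a phosphate from the lipid product of PI3K (-0.43, SE 0.10), and *Grb10*, a relative of *Grb14* (-0.34, SE 0.08, named after its values were seen). Both lost the call without Ntg sham replicate 4, at -0.34 (adjusted p = 0.0807 by limma) and -0.26 (adjusted p = 0.125). Without that array 4 pathway genes were higher and 2 lower, among them *Pik3cd*, the p110 delta catalytic subunit of blood cells (-0.94, adjusted p = 0.0442), which was at -0.68 with all arrays (adjusted p = 0.253) and is also named after its values were seen. The transcripts of p110 alpha, *Pik3ca* (0.05, SE 0.15), of its regulatory subunit, *Pik3r1* (-0.06, SE 0.16), of *Akt1* (0.26, SE 0.10) and of the insulin receptor, *Insr* (0.25, SE 0.16), were not called. *Irs2* was at 267, 348, 273 and 214 in dnPI3K sham hearts, against 252, 43.8, 167 and 19.7 in Ntg sham hearts. Its groups overlapped and its difference of 1.58 (SE 0.58) had an adjusted p of 0.254 in limma.

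Transcripts of the FoxO factors and of their targets mostly did not pass. *Foxo1* was at 0.08 (SE 0.11) and *Foxo3* at 0.16 (SE 0.15). Of 40 measured FoxO genes and targets 0 rose and 1 fell, *Cat*, the catalase that breaks down hydrogen peroxide, beside 0.725% lower over all genes tested, with a median over the list of 0.06. The signal of *Cat* was 6534, 5878, 7196 and 6781 in dnPI3K sham hearts, against 8553, 9262, 7999 and 9149 in Ntg sham hearts. All dnPI3K arrays were below all Ntg arrays, and the change was -0.41 (SE 0.09, adjusted p = 0.0127 by limma; -0.38 without Ntg sham replicate 4). The next members by p-value were *Ctsl*, a lysosomal protease (0.31, adjusted p = 0.0563), *Fbxo21* (-0.51, adjusted p = 0.113) and *Txnip*, which binds thioredoxin (0.53, adjusted p = 0.192).

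The largest increases that met the naming rule were in *Bex1*, *Tceal7* and *Dusp4*. *Bex1*, a small X-linked adaptor protein first described in brain, read 12594, 12909, 11543 and 10049 in dnPI3K sham hearts, against 2512, 2738, 2011 and 378 in Ntg sham hearts. The lowest Ntg value is that of replicate 4; the change was 2.94 (SE 0.39, adjusted p = 5.35e-05 by limma), a ratio of 7.68 on the scale with the pseudocount, and 2.28 without that array. *Tceal7*, of a related X-linked family that resembles a transcription elongation factor, read 657, 606, 373 and 630 in dnPI3K sham hearts, against 139, 168, 127 and 63.4 in Ntg sham hearts. Its change was 2.13 (SE 0.40, adjusted p = 0.00383), and 1.86 without Ntg sham replicate 4. *Tceal8*, named after its values were seen, also rose (0.90, SE 0.12, adjusted p = 3.74e-05). *Dusp4*, a phosphatase of MAP kinases, read 578, 634, 549 and 438 in dnPI3K sham hearts, against 183, 121, 96.0 and 143 in Ntg sham hearts. The groups lay far apart, at 1.95 (SE 0.25, adjusted p = 3.74e-05 by limma), and Ntg sham replicate 4 was not the extreme array (1.99 without it).

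Others that rose were *Tmem100*, a membrane protein induced by bone morphogenetic protein signals in endothelium (1.75, SE 0.23), and *Slc38a1*, a carrier of glutamine and other neutral amino acids (1.58, SE 0.22). *Gnb3*, a G protein beta subunit, was nearly level over the dnPI3K arrays, at 886 to 940, against 178 on Ntg sham replicate 4 and 430 to 452 on the other Ntg arrays. It rose by 1.35 (SE 0.22), or 1.03 without that array. *Upp1*, which splits uridine (1.19, SE 0.23), *Plagl1*, an imprinted zinc finger factor (0.99, SE 0.20), *Tmem164* (0.96, SE 0.16) and *Etv5*, a factor of the ETS family (0.96, SE 0.21), complete, with *Irs1* and *Nppa*, the 12 largest increases that met the naming rule. For increases and decreases alike, the rule asked for groups that do not overlap and for a call without Ntg sham replicate 4. That all 12 have both is therefore no sign of stability. *Etv5* lost the call without Ntg sham replicate 1, Ntg sham replicate 2, dnPI3K sham replicate 2 or dnPI3K sham replicate 3 (adjusted p from 0.0552 to 0.076 by limma), and *Plagl1* without dnPI3K sham replicate 2 (adjusted p = 0.0549). With the term for array number, *Plagl1* had an adjusted p of 0.078. Dimmer probe sets of *Tmem100* and *Plagl1* had the other sign without passing (-0.17 and -0.66), and with the median over probe sets *Tmem100* (0.79), *Plagl1* (0.16), *Tmem164* (0.90) and *Etv5* (0.63) were not called.

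The promoters of *Bex1*, *Tceal7* and *Irs1* are shown because these genes are among the 12 increases and share a 6-base palindrome, for which they were picked. Sequences are from RefSeq (GRCm38.p6), printed 5′ to 3′ on the strand of the gene from 150 bases before to 10 bases after its start, with CACGTG in capitals. *Bex1* and *Irs1* are on the minus strand and *Tceal7* on the plus strand.
*Bex1* promoter, chrX:136215504-136215663: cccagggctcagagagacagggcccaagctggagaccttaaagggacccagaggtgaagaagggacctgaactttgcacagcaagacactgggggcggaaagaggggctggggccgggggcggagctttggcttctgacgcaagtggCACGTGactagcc
*Tceal7* promoter, chrX:136223891-136224050: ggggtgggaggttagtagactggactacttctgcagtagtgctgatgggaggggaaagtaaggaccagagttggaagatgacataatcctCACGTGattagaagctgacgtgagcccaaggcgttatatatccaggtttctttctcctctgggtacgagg
*Irs1* promoter, chr1:82291430-82291589: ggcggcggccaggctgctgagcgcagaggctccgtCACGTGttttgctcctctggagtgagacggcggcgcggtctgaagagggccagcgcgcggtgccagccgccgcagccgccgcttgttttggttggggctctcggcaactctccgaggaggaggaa
In windows of 300 bases, 250 before and 50 after the start, CACGTG was found in 14 of the 45 called higher genes with a listed promoter (31.1%), in 6 of 83 called lower genes (7.23%) and in 1282 of 11820 genes tested (10.8%). *Bex1*, *Tceal7* and *Tceal8* lie close together on the X chromosome, so their promoters are not separate examples. The motif and its share were looked up after the values were seen, on both strands, and the match is a description of letters.

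The FoxO letters GTAAACA were found in the same windows of 2 called higher genes (4.44%), 1 called lower gene (1.2%) and 3.21% of genes tested. The shorter AAACA, which GTAAACA contains, was in 27 of 45 higher genes, 39 of 83 lower genes and 44.0% of genes tested. The cyclic AMP element TGACGTCA was in 2.22%, 3.61% and 3.18% of higher, lower and tested genes, and the MEF2 core motif in 4.44%, 4.82% and 3.91%. The 6 motifs searched were these, CACGTG and CAGCTG.

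Of 29 measured genes typical of skeletal muscle fibres, 5 were lower in dnPI3K hearts and 0 higher. *Myl1*, the alkali light chain of fast skeletal muscle that is also made in the embryonic heart and in atria, read 4169, 4289, 4836 and 4166 in dnPI3K sham hearts, against 16754, 16355, 13142 and 35965 in Ntg sham hearts. The dnPI3K arrays were tightly grouped below all Ntg arrays, and the change was -2.12 (SE 0.20, adjusted p = 8.39e-07 by limma), or -1.81 without Ntg sham replicate 4 (adjusted p = 4.34e-08). *Casq1*, the calcium-binding calsequestrin of fast skeletal muscle, read 1144, 846, 681 and 1389 in dnPI3K sham hearts, against 2591, 2559, 2469 and 3953 in Ntg sham hearts. It fell by 1.52 (SE 0.17, adjusted p = 6.34e-06) with no overlap, and was at -1.37 without that array. *Asb5*, a muscle ankyrin-repeat protein of ubiquitin ligases (-0.87, SE 0.14), and *Mybpc2*, the fast skeletal myosin-binding protein C (-0.72, SE 0.12), fell as well.

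The skeletal-type list had 10 positive and 19 negative members, with a median of -0.11, and 0.725% of all genes tested were lower. For each list count with all arrays, here and below, the shares over all genes tested are the same, 0.420% higher and 0.725% lower. For counts without Ntg sham replicate 4 they are 0.474% higher and 0.657% lower. No test of a list was made. The fifth, *Ky*, a muscle protein named after its values were seen, was dim (-1.18, SE 0.29) and lost the call without Ntg sham replicate 4 (adjusted p = 0.0945 by limma). Of 36 sarcomere and Z-disc genes 0 rose and 2 fell, the Z-disc proteins *Pdlim7* (-0.60, SE 0.12) and *Ldb3* (-0.33, SE 0.08). Their dimmer probe sets did not pass, at 0.02 and -0.23 for *Pdlim7* and at -0.08 and -0.08 for *Ldb3*. *Myh6* (0.01, SE 0.09) and *Myh7*, the slow myosin heavy chain (0.18, SE 0.34), were not called. *Acta1*, skeletal alpha-actin, was at -0.32 (SE 0.17, adjusted p = 0.54), and at -0.03 without Ntg sham replicate 4.

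**Figure D2:**
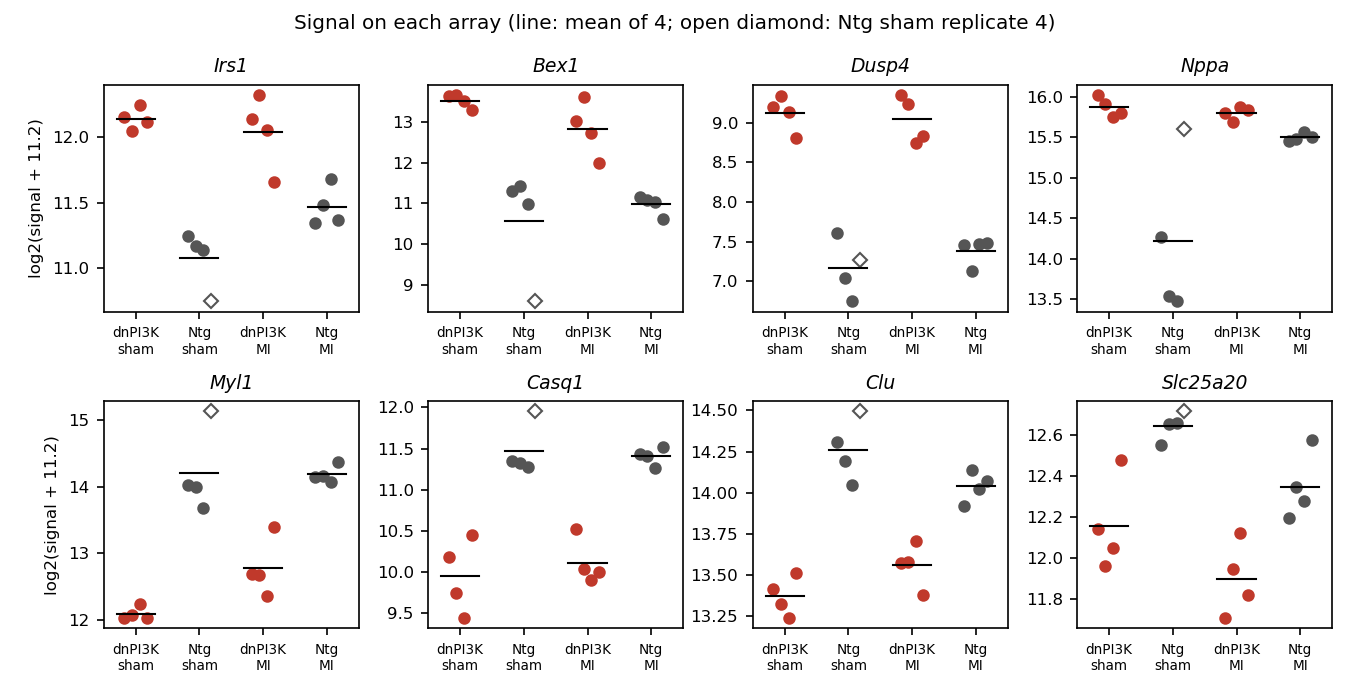
Signal of 8 called genes on each dnPI3K and Ntg array, as log2(signal + 11.2), in sham and in MI hearts; each line is the mean of 4 arrays and the open diamond is Ntg sham replicate 4. In sham hearts the dnPI3K and Ntg arrays do not overlap for any of the 8 genes. For *Irs1*, *Bex1*, *Dusp4*, *Nppa*, *Myl1* and *Casq1* the naming rule asked for this. *Nppa* is high on all MI arrays.

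The promoters of *Myl1* and *Casq1* are shown as the largest falls among muscle genes, from 250 to 101 bases before the start on the minus strand (RefSeq, GRCm38.p6). Capitals mark CAGCTG, letters of an E-box read by muscle basic helix-loop-helix factors.
*Myl1* promoter, chr1:66945157-66945306: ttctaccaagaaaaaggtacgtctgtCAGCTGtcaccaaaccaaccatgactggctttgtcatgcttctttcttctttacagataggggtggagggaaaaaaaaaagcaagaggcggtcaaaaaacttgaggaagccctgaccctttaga
*Casq1* promoter, chr1:172219996-172220145: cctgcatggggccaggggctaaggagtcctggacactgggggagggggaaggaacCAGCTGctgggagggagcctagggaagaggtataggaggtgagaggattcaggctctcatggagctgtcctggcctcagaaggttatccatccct
CAGCTG was found in the 300-base windows of 26 of the 83 called lower genes with a promoter (31.3%), of 10 of 45 called higher genes (22.2%) and of 2186 of 11820 genes tested (18.5%). This search was also made after the values were seen.

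Among named genes outside muscle, the strongest decreases were in *Cyp2b10*, a cytochrome P450 known for drug metabolism in liver, and *Lgi1*, a secreted protein of synapses. *Cyp2b10* read 25.7, 35.6, 140 and 166 in dnPI3K sham hearts, against 904, 638, 858 and 347 in Ntg sham hearts. Values on dnPI3K sham replicates 1 and 2 are near background, while those on replicates 3 and 4 lie above the median signals of their arrays (102 and 114). The change of -2.99 (SE 0.39, adjusted p = 4.7e-05 by limma) therefore depends on the pseudocount (-1.97 with the median signal, -3.22 with 1). Probe sets of this gene may also read related Cyp2b transcripts; 3 probe sets gave -2.99, -2.73 and -1.90. *Lgi1* read 8.88, 98.2, 59.4 and 68.1 in dnPI3K sham hearts, against 349, 391, 435 and 360 in Ntg sham hearts. It was near background in all 4 dnPI3K hearts and level in Ntg hearts (-2.73, SE 0.42, adjusted p = 0.0004), and this size too depends on the pseudocount, from -1.56 with a pseudocount of the median signal to -3.09 with a pseudocount of 1.

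*Plbd1*, a phospholipase B-like protein of lysosomes, read 990, 651, 980 and 1177 in dnPI3K sham hearts, against 2321, 2232, 2416 and 2554 in Ntg sham hearts. Its Ntg arrays were close to each other, replicate 4 included, and the change was -1.35 (SE 0.16, adjusted p = 1.16e-05). *Egf*, epidermal growth factor (-1.29, SE 0.23), *Mapk10*, the MAP kinase JNK3 (-1.17, SE 0.22), and the predicted gene *Gm10336* (-1.46, SE 0.19) fell by similar amounts. In *Igsf1*, an immunoglobulin superfamily membrane protein (-2.16, SE 0.32), *Masp1*, a protease of the lectin pathway of complement (-1.34, SE 0.24), *Nkain1*, which interacts with the sodium pump (-1.19, SE 0.20), and *Prune2* (-1.21, SE 0.15), Ntg sham replicate 4 was the highest array. Without it they were at -1.67, -0.97, -0.88 and -1.05. Other probe sets of *Masp1*, all dimmer, gave -0.56 to 0.74, and its median over probe sets was 0.13, the opposite direction. A dimmer *Igsf1* probe set was at 0.70 and its median over probe sets at -0.73 (adjusted p = 0.574). One of the other *Prune2* probe sets was at 0.64, and *Prune2* (-0.83) and *Nkain1* (-1.31) were not called with the median over probe sets. Of the 24 leading genes, 12 had more than 1 probe set and 6 of these had all in 1 direction.

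Natriuretic peptide and stretch genes did not move as a group. *Nppa*, the atrial natriuretic peptide, read 66782, 61694, 55371 and 57035 in dnPI3K sham hearts, against 19734, 11869, 11340 and 49869 in Ntg sham hearts. Replicate 4 of Ntg sham was far above the other Ntg arrays. The change was 1.65 (SE 0.27, adjusted p = 0.000927 by limma), or 2.12 (SE 0.18) without that array. In a fit of the 8 arrays alone its adjusted p was 0.0555, and 0.0591 with the term for array number. *Nppb*, the B-type peptide, read 44907, 41740, 38645 and 35275 in dnPI3K sham hearts, against 33281, 30738, 24135 and 34477 in Ntg sham hearts. Its groups did not overlap, but its difference of 0.40 (SE 0.11) missed the threshold (adjusted p = 0.102, and 0.0625 without Ntg sham replicate 4).

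*Ccn2*, connective tissue growth factor, read 11452, 13086, 11708 and 9670 in dnPI3K sham hearts, against 7983, 5583, 5627 and 6659 in Ntg sham hearts. It rose by 0.84 (SE 0.13, adjusted p = 0.000619), with no overlap. *Fhl2*, a LIM-domain protein of heart muscle, read 22217, 16376, 18050 and 20668 in dnPI3K sham hearts, against 28664, 31906, 26449 and 29859 in Ntg sham hearts, and fell by 0.60 (SE 0.11, adjusted p = 0.00325). Of 21 fetal and wall-stress genes these were the calls, 2 up with *Nppa* and 1 down, and the list median turned from -0.05 to 0.19 when Ntg sham replicate 4 was left out. Of 14 atrial markers 1 rose, *Nppa*, and 1 fell, *Clu*. The chaperone *Clu*, clusterin, read 10906, 10245, 9669 and 11683 in dnPI3K sham hearts, against 20240, 18721, 16924 and 23067 in Ntg sham hearts. The groups were well apart (-0.89, SE 0.09, adjusted p = 1.57e-06), and its 4 probe sets gave -0.81 to -0.98.

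Of 42 measured genes of fatty acid use, 3 were lower in dnPI3K hearts and 0 higher. *Slc25a20*, the carnitine-acylcarnitine carrier of the inner mitochondrial membrane, read 4501, 3982, 4222 and 5696 in dnPI3K sham hearts, against 5991, 6437, 6442 and 6709 in Ntg sham hearts. It fell by 0.49 (SE 0.09, adjusted p = 0.00539 by limma). *Cpt2*, which rebuilds acyl-CoA inside mitochondria, read 5008, 4168, 4194 and 6526 in dnPI3K sham hearts, against 6996, 7747, 6814 and 5923 in Ntg sham hearts. One array of each group crossed the other, and the change was -0.48 (SE 0.12, adjusted p = 0.0346). The third was *Acad11*, an acyl-CoA dehydrogenase (-0.43, adjusted p = 0.0498; 0.0674 without Ntg sham replicate 4). Over all genes tested 0.725% were lower, and 11 of the 42 members were positive. The list median was -0.15, and -0.19 without Ntg sham replicate 4, when *Ech1*, an isomerase of fatty acid oxidation, was called in place of *Acad11* (-0.47, adjusted p = 0.0323; -0.36 and 0.161 with all arrays).

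Downstream mitochondrial lists held no calls: 0 of 74 genes of oxidative phosphorylation (median -0.01) and 0 of 27 of the citric acid cycle (median -0.03) passed. Among 28 PGC-1, PPAR and ERR regulators 0 rose and 1 fell, the retinoid receptor *Rxrg* (-0.62, SE 0.13), and *Ppargc1a*, the coactivator PGC-1 alpha, was at 0.46 (SE 0.20, adjusted p = 0.348). Of 38 genes of glucose use 1 rose, the glycogen phosphorylase *Pygl* (0.58, SE 0.14), and 0 fell. Without Ntg sham replicate 4 *Pygl* was not called (0.50, adjusted p = 0.0962 by limma). *Ugp2*, of the same list, was at 0.34 on its brightest probe set and was not called. Its dimmer probe sets gave 0.35 to 0.49. With adjustment over all probe sets in limma, those at 0.42 and 0.49 passed (adjusted p = 0.0486 and 0.00761). Those at 0.35 and 0.48 did not. Among 42 antioxidant genes the peroxiredoxin *Prdx4* rose (0.46, SE 0.10), and *Gsta4*, a glutathione transferase (-0.39, SE 0.08), and *Cat* fell.

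Calcium handling showed no call among 32 genes, and the calcium pump *Atp2a2* (-0.02, SE 0.08) and its inhibitor *Pln* (-0.05, SE 0.08) differed by less than their errors. Of 32 potassium and sodium channel genes 0 rose and 1 fell (0.725% lower over all genes tested), *Scn4b*, a beta subunit of sodium channels. Its signals were 425, 258, 426 and 524 in dnPI3K sham hearts, against 883, 618, 744 and 1203 in Ntg sham hearts. The groups did not overlap, and the change was -1.06 (SE 0.19, adjusted p = 0.00251; -0.89 without Ntg sham replicate 4). *Kcnd2*, a pore subunit of the transient outward current, was at -0.57 (adjusted p = 0.0789), and passed without that array (-0.68, adjusted p = 0.0311). *Kcnj5*, a G protein-gated potassium channel, did not pass in either case (-0.61 and -0.66). Among 17 phosphodiesterases *Pde1c* rose (0.90, SE 0.19) and *Pde7b* fell (-0.45, SE 0.09); *Pde1c* was not called without Ntg sham replicate 4 (0.74, adjusted p = 0.0614).

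Matrix and fibroblast genes gave few calls and depended on Ntg sham replicate 4. Of 65 matrix genes 1 was called with all arrays, *Ccn2*, with a median of 0.06, and the median was 0.21 without Ntg sham replicate 4. *Thbs4*, thrombospondin 4, was then called too (0.78, adjusted p = 0.0328), against 0.48 and 0.428 with all arrays. The collagens *Col1a1* (0.09, SE 0.34) and *Col3a1* (0.15, SE 0.25), *Postn* (0.07, SE 0.31) and *Mfap4* (0.09, SE 0.71) were not called; without that array they were at 0.54, 0.47, 0.62 and 1.19, with adjusted p from 0.0831 to 0.53. For 27 fibroblast markers the calls were 0 with all arrays and 2 without it, *Pi16* and *Cd248*, and the median was 0.09 and 0.29. The summed signal of the fibroblast markers was 148680 to 168691 on dnPI3K sham arrays, against 179801 on Ntg sham replicate 4 and 125818 to 151235 on the other Ntg sham arrays.

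Markers of other cells gave few calls. There were 0 calls among 25 endothelial, 29 macrophage, 11 lymphocyte, 15 smooth muscle, 6 red cell and 9 conduction system markers, with and without Ntg sham replicate 4. Of 14 nerve and Schwann cell markers 0 were called with all arrays. Without that array 1 was lower, *Dbh* (-0.68, adjusted p = 0.0258 by limma), which was at -0.56 with all arrays. Its dimmer probe sets were at -0.85 and -1.65 with all arrays, and the second passed over all probe sets (adjusted p = 0.000919). The macrophage markers summed to between 47944 and 80860 in dnPI3K sham hearts, against 44033 to 65394 in Ntg sham hearts. Of 17 adipocyte markers 2 fell, the amino acid carrier *Slc36a2* (-0.998, SE 0.16) and *Cidea*, a lipid droplet protein also made in heart muscle (-0.46, SE 0.10). Without Ntg sham replicate 4 *Dgat2*, named after its values were seen, was called lower as well (-0.64, adjusted p = 0.0112 by limma). The keratin *Krt18* was the 1 call among 13 mesothelial and epicardial markers (1.26, SE 0.29), with overlapping signals of 157 to 433 in dnPI3K sham and 59.1 to 192 in Ntg sham hearts. Their part in the results above was not tested.

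**Figure D3:**
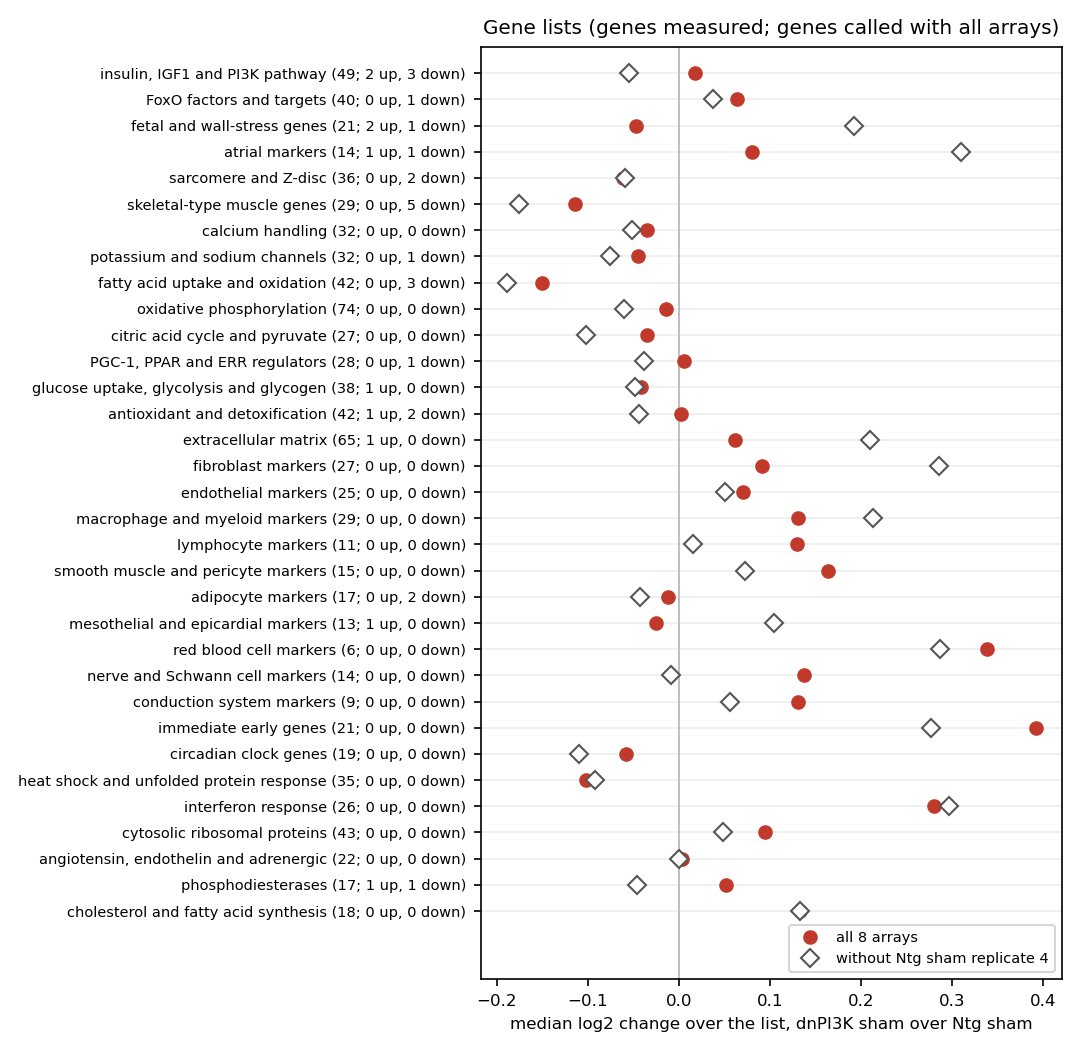
Median log2 change over each gene list, dnPI3K sham over Ntg sham, with all 8 arrays (red) and without Ntg sham replicate 4 (open diamonds); the number of genes measured and called with all arrays stands beside each name. The skeletal-type and fatty acid lists lie at the low end and the matrix and fibroblast medians are at 0.06 and 0.09 with all arrays, and at 0.21 and 0.29 without replicate 4.

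Some lists without a call had most members on one side. Of 21 immediate early genes 19 were positive (median 0.39), of 26 interferon response genes 21 (median 0.28) and of 43 cytosolic ribosomal protein genes 40 (median 0.09). Others leaned the other way. Of 35 heat shock and unfolded protein response genes 25 were negative (median -0.10). So were 19 of 27 citric acid cycle genes (median -0.03) and 20 of 32 calcium handling genes (median -0.03). Over all genes tested 7330 of 14763 were positive. Members of such lists vary together between arrays, so these counts are descriptions only.

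The same genes were read in 8 arrays that the sham comparison did not use as its groups, dnPI3K MI against Ntg MI; the fit shares its estimate of the spread over all arrays. There 382 genes were called (2.59%), 97 higher (0.657%) and 285 lower (1.93%). Of the 62 genes higher in sham hearts, 58 were also positive after MI and 20 were called higher (32.3% of them, and 20.6% of the MI list). Of the 107 lower genes, 105 were negative after MI and 61 were called lower (57.0% of them, and 21.4% of the MI list). In all 0 genes were called in opposite directions. The sign was the same for 96.4% of the called genes, against 57.9% of all genes tested. The median ratio of the MI change to the sham change was 0.65; since the genes were chosen for their sham values, a smaller change elsewhere is partly fixed by the choice.

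Array dnPI3K MI replicate 1 had a median signal of 150, above 102 to 118 on the other dnPI3K and Ntg arrays. Without it 325 genes were called after MI (2.20%), 87 higher and 238 lower, and of the same genes 17 were called higher and 52 lower. The MI counts without other single arrays ran from 217 to 493. For the genes called without Ntg sham replicate 4, 65 of 70 higher genes were positive after MI (22 called) and 95 of 97 lower genes were negative (61 called). In the fit without that array 472 of the 14763 genes were called after MI, 129 higher and 343 lower.

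Among the leading genes, *Dusp4* rose by 1.66 after MI (SE 0.25), *Bex1* by 1.86 (SE 0.39), *Slc38a1* by 1.22 (SE 0.22) and *Irs1* by 0.57 (SE 0.12). *Myl1* (-1.41, SE 0.20), *Casq1* (-1.30, SE 0.17), *Scn4b* (-1.09, SE 0.19) and *Grb14* (-0.77, SE 0.09) fell, as did *Plbd1* (adjusted p = 3.67e-06). *Igf1r* (0.54, adjusted p = 0.0484), *Ccn2* (0.54, adjusted p = 0.0258), *Fhl2* (-0.64, adjusted p = 0.0015), *Clu* (-0.48, adjusted p = 0.00269) and *Slc25a20* (-0.45, adjusted p = 0.00775) passed in MI hearts as well. Of the 24 leading genes 15 were called after MI and 9 were not. Those not called were *Nppa* (0.30, adjusted p = 0.661), *Gnb3* (0.25, adjusted p = 0.644), *Etv5* (0.27, adjusted p = 0.592), *Tceal7* (1.08, adjusted p = 0.18), *Nkain1* (-0.43, adjusted p = 0.317), *Tmem164* (0.45, adjusted p = 0.16), *Masp1* (-0.80, adjusted p = 0.0771), *Upp1* (0.80, adjusted p = 0.0636) and *Igsf1* (-1.13, adjusted p = 0.0545). *Nppa* read 52900 to 60358 in dnPI3K MI and 44902 to 48484 in Ntg MI hearts, near the top of the signal range of those arrays.

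The difference between the MI and the sham change was tested directly. With all arrays 0 genes passed in limma, and 1122 genes (7.6%) had an unadjusted p under 0.05. Without Ntg sham replicate 4, 1 gene passed, *Nppa*: the dnPI3K minus Ntg change was 0.30 after MI and 2.12 in sham hearts, a difference of -1.81 (SE 0.24, adjusted p = 0.000912), and 1006 genes had an unadjusted p under 0.05. Without Ntg sham replicate 2, 1 gene passed, *Cox16*, an assembly factor of cytochrome oxidase named after its values were seen (-0.85, SE 0.13, adjusted p = 0.0102).

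**Figure D4:**
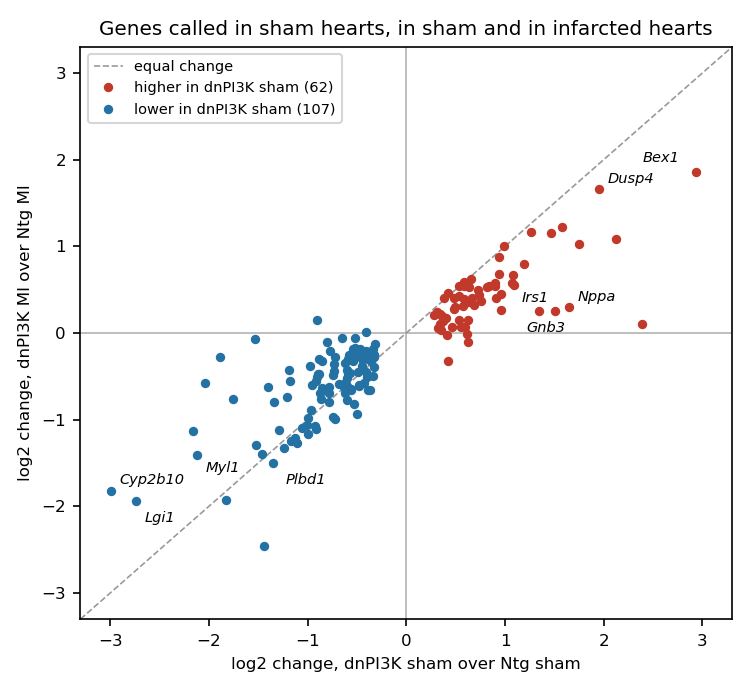
Log2 change of the 169 genes called in sham hearts, dnPI3K sham over Ntg sham (horizontal) against dnPI3K MI over Ntg MI (vertical); the dashed line marks equal change. Most points lie in the quadrants of equal sign, 58 of 62 higher and 105 of 107 lower genes, and nearer to 0 after MI.

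Values in the sham hearts with raised PI3K activity can be set beside these, though both comparisons share the Ntg sham arrays, replicate 4 among them. *Irs1* was at 1.07 in dnPI3K sham and -0.51 in caPI3K sham hearts, each against Ntg sham (adjusted p = 0.0614 for caPI3K). *Bex1* was at 2.94 and -1.68 in the same order, and *Myl1* at -2.12 and 0.69. *Casq1* was at -1.52 and 0.60, and *Gnb3* at 1.35 and -0.76. The caPI3K changes of these genes did not pass in limma (adjusted p from 0.0646 to 0.147). All caPI3K changes here include Ntg sham replicate 4. That array was within the caPI3K sham range for *Bex1* (378, range 285 to 719) and *Igsf1* (1278, range 1107 to 1370). Ntg sham replicates 1 to 3 were at 2011 to 2738 and 268 to 384. For *Dusp4* it was within the range of Ntg sham replicates 1 to 3. Of the named genes 6 were called in both: *Igsf1* (-2.16 and 1.46, adjusted p = 0.0485 for caPI3K), *Scn4b* (-1.06 and 0.94, adjusted p = 0.0268), *Pde1c* (0.90 and -1.30, adjusted p = 0.00334), *Mybpc2* (-0.72 and 0.67, adjusted p = 0.012), *Clu* (-0.89 and 0.41, adjusted p = 0.0485) and *Pygl* (0.58 and -0.63, adjusted p = 0.0459). *Slc38a1* was at 1.58 and -0.03, *Plbd1* at -1.35 and 0.25, and *Dusp4* at 1.95 and -0.36. In the caPI3K sham comparison 41 genes were called (0.278%). Of the 4 caPI3K sham arrays, 3 had *Xist*, expressed from the inactive X chromosome, at log2 6.77 to 7.08, while it was 12.83 to 13.51 on the 8 arrays of the dnPI3K comparison. The sources used here do not give the sex of the mice, and its part in the caPI3K changes above was not tested. *Bex1* and *Igsf1* are on the X chromosome.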

How the data were processed

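The deposited values are signal intensities made with MAS5, per the submitters' processing notes, whose version the sources used here do not give. The authors had scaled the arrays to a common level: the mean intensity after trimming 2 percent at each end was 500.003 to 500.004 on all 24 arrays, and nothing further was normalized. Of 45101 probe sets, 64 controls were dropped. In the platform annotation 34945 name 1 gene, 932 several and 9160 none, and only the first kind was used. RefSeq (GRCm38.p6) held the gene IDs of 34741 of these. The filter asked for a signal over the 40th percentile of an array on 4 or more arrays (33061 probe sets kept), and the brightest stood for its gene, which left 14763 genes, 6946 of them with a choice. The pseudocount of 11.2 is the median signal divided by 10.

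A mean for each of 6 groups was fitted in limma 3.58.1 (R 4.3.3) with an intensity trend and 18 residual degrees of freedom; data were read with data.table (1.17.8) and pandas 2.3.3, and figures drawn with matplotlib 3.10.9 (Python 3.11.15). SE is the model's standard error.

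The comparison, the 34 gene lists (1 of sex-linked check genes) and the tests were chosen with earlier results of these data known. Genes named are 22 preset genes, the 12 largest called changes in each direction whose arrays do not overlap, with a mean of at least 8 in the higher group and a call without Ntg sham replicate 4, and in each list the 4 members with the smallest p; others are said to be chosen later. The number of arrays limits precision. Replicates were numbered in accession order. On simulated data (14763 genes, 200 changed, 5 runs) recovery in the sham comparison was 30.8% at a log2 change of 0.5, 62.8% at 1 and 84.8% at 2, and false calls averaged 5.2. Alternatives covered pseudocount, filter, normalization, arrays in the fit, array numbers, variance step, probe set and each array left out.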

Additional observations from a re-analysis of the deposited data

Results flagged for a closer look

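Among 73 named genes, in each of the 2 sham groups of 4 arrays (146 groups of values), 11 held an array whose gap to its nearest neighbour was large for the range of the group; chance alone gives about 1 in 20. Ntg sham replicate 4 was that array in 7 of the 11. On the log2 scale it was high for *Acta1* (15.32, against 14.15 to 14.17 on the other Ntg sham arrays), *Casq1* (11.95, against 11.28 to 11.35), *Pdlim7* (10.69, against 10.05 to 10.14), *Mfap4* (9.20, against 4.51 to 4.95) and *Thbs4* (11.40, against 10.08 to 10.27). It was low for *Bex1* (8.60, against 10.98 to 11.42) and *Gnb3* (7.57, against 8.79 to 8.85). Ntg sham replicate 2 was low for *Pik3ca* (10.01, against 10.69 to 10.79). In dnPI3K sham hearts, replicate 3 was low for *Mybpc2* (8.70, against 9.13 to 9.20) and *Tceal7* (8.59, against 9.27 to 9.38), and replicate 2 was high for *Plagl1* (11.72, against 11.12 to 11.21).

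The change of *Nppa* in dnPI3K over Ntg differed between MI and sham hearts by -1.81 when Ntg sham replicate 4 was left out, as tested by the difference of the changes in limma. With all arrays the difference was -1.35 (SE 0.39, adjusted p = 0.506 by limma). The array left out was far above the other Ntg sham arrays for *Nppa*. The dnPI3K sham signals of *Nppa*, 55371 to 66782, were near the top of the range of their arrays, as were the MI signals.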

How the results depend on the processing

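The count of 169 called genes stayed within 1.5 times under other pseudocounts (162 and 163), no filter (147), a 60th percentile filter (193), quantile normalization (179), robust variance shrinkage (167) and a fit on the 12 sham arrays (145). It was 74 in a fit on the 8 arrays alone, 104 with a term for array number in that fit, 107 without the intensity trend and 103 with the median over probe sets. Within the arrays numbered 415 to 418 it was 41 and within those numbered 1181 to 1191 it was 43, with 2 arrays a group. Leaving out single arrays gave 79 to 188. Combined settings chosen after seeing the data, all without Ntg sham replicate 4, gave 110 in a fit on the other 7 arrays, 97 with the median over probe sets, 167 with quantile normalization and 70 without dnPI3K sham replicate 2 as well. The MI count of 382 ran from 217 to 493 without single arrays, with 247 without dnPI3K MI replicate 2, 224 without Ntg MI replicate 3 and 217 without Ntg MI replicate 4; the count of differing changes was 0 or 1. Of the 24 largest changes, *Masp1* alone changed direction, at 0.13 with the median over probe sets; *Nppa*, *Plagl1*, *Etv5*, *Masp1*, *Egf* and *Nkain1* lost the call in the fit on 8 arrays (adjusted p from 0.0555 to 0.0805). *Nppa* and *Plagl1* also lost it with the array number term (adjusted p = 0.0591 and 0.078). Of 121 named genes that were not called, 28 changed sign at least once, in 62 of 2531 values over genes and settings. Except where a setting has fewer arrays or other values by construction, the cause was not tested. No paired analysis was possible because the titles give numbers of unstated meaning and no replicate numbers shared between groups. The number of arrays limits what can be seen: small changes of 0.5 were recovered in 30.8% of simulated cases.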

Other observations

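Without Ntg sham replicate 4, 53 genes were called that were not called with all arrays, 32 higher and 21 lower in dnPI3K sham hearts. The genes named here were chosen after their values were seen, and adjusted p-values are from limma. Among those higher were 3 insulin-like growth factor binding proteins, *Igfbp6* (0.67, SE 0.16, adjusted p = 0.0403; 0.34 with all arrays), *Igfbp4* (0.42, SE 0.11, adjusted p = 0.0477; 0.34 with all arrays) and *Igfbp7* (0.38, SE 0.09, adjusted p = 0.0384; 0.20 with all arrays). *Cd44*, a receptor for hyaluronan, was at 0.78 (SE 0.17, adjusted p = 0.0195; 0.54 with all arrays), and *Sfrp1*, a secreted inhibitor of Wnt signals, at 0.74 (SE 0.18, adjusted p = 0.0374; 0.57 with all arrays). Among those lower were *Dgat2*, which makes triglyceride (-0.64, SE 0.13, adjusted p = 0.0112; -0.40 with all arrays), and *Apbb1*, an adaptor of the amyloid precursor protein (-0.71, SE 0.11, adjusted p = 0.000775; -0.45 with all arrays).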
